A study of Mus musculus with 2 samples.

Results

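Natural killer (NK) cells were examined in fracture callus, the repair tissue that bridges a broken bone, by single-cell RNA sequencing. A barcode was taken as an NK cell when it held at least 3 unique molecular identifiers (UMIs, 1 count per captured RNA molecule) of Ncr1, Klrb1c, Klre1, Klra8 and Eomes together, from at least 2 of these 5 genes. It also had to hold at most 1 UMI of the T cell genes Cd3d and Cd3e, no UMI of the B cell genes Cd79a and Ms4a1, and fewer than 100 UMIs of the cartilage collagen gene Col2a1 per 10000. By this rule 632 of 21266 cells were NK cells. Because the rule reads expression, the 10 genes it uses describe how the cells were chosen and are not results.

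All cells came from femoral fracture callus of wild-type C57BL/6J mice, which were 12-week-old males per the methods of the study. A transverse break was made in the middle of the femur and held by a needle in the marrow cavity, and the callus was digested with enzymes before droplet capture. Both libraries were labelled as wild type, and the labels named no treatment other than the fracture. The design named calluses taken 10 days (n = 5 mice) and 20 days (n = 5 mice) after fracture. The labels gave neither of the 2 libraries, MGJ and MGJ2, a day, how many mice each library holds was not given in the sources used here, and cells cannot be traced to single mice by their barcodes. The libraries are therefore given side by side, without a comparison of days, without a p-value, and with intervals that cover counting error only.

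NK cells are innate lymphocytes that kill infected or transformed cells without prior sensitization. They carry perforin and granzymes in granules, and a balance of activating and inhibitory receptors, many of them lectin-like proteins encoded in one gene complex, decides whether the granules are released. They depend on interleukin 15, mature from Cd27-bearing to Itgam-bearing cells in mice, and secrete interferon gamma and chemokines that act on macrophages and other leukocytes.

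Library MGJ held 14295 barcodes and 135304426 UMIs (median, 5026 UMIs per barcode), and library MGJ2 held 8009 barcodes and 61130834 UMIs (median, 4952), where the capture had aimed at 5000 cells. Cells were kept with at least 200 genes and at most 20% of UMIs from mitochondrial genes, which left 13460 and 7806. The libraries shared 19 barcode sequences, of which 1 was an NK cell of library MGJ2. In library MGJ, 38 cells were NK cells, which is 0.282% of the kept cells (exact 95% interval, 0.200 to 0.387). In library MGJ2, 594 cells were NK cells, which is 7.61% (7.03 to 8.22). Among the lymphocytes defined by the same kind of rule, NK cells were 8.17% of the 465 NK, T and B cells that library MGJ held, and 31.8% of the 1870 that library MGJ2 held. The share of any class in a library also depends on how the tissue was digested and on the other cells recovered, and these cannot be told apart from the abundance of NK cells in the callus.

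The comparison class most like NK cells was T cells, taken as cells with at least 3 UMIs of Cd3d and Cd3e and at most 1 UMI of the 5 NK genes. There were 139 T cells in library MGJ and 438 in library MGJ2. B cells (288 and 838) and neutrophils (761 and 1609) served as classes that should lack NK transcripts. The share of their cells with a UMI was read as a guide to free RNA. Both classes were also held to at most 1 UMI of the 5 NK genes and at most 1 UMI of Cd3d and Cd3e. Their shares of NK and T cell genes can therefore understate free RNA. The median depth in library MGJ was 2782.5 UMIs for NK cells, 3672 for T cells, 2212 for B cells and 3609 for neutrophils. In library MGJ2 it was 4008.5, 5479, 3465 and 2977 UMIs. NK cells held 120509 UMIs in all in library MGJ and 2924498 in library MGJ2, so 3 UMIs corresponded to 24.9 and 1.03 UMIs per 1000000 (CPM), and values in library MGJ carry the wider error.

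Of the genes used by the rule, Klre1, a lectin-like receptor, and Eomes, the transcription factor of conventional NK cells, were found in the most cells. Klre1 had a UMI in 89.5% of NK cells of library MGJ and 85.0% of library MGJ2, and Eomes in 89.5% and 95.1%. Klra8, the activating receptor Ly49H, was found in 47.4% and 57.4%. The classical identity genes were sparse. Ncr1, which encodes the NK receptor NKp46, had a UMI in 7.89% and 7.74% of the cells, and Klrb1c, which encodes NK1.1, in 13.2% and 15.5%.

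Genes outside the rule were checked against the label. Gzma, which encodes the granule protease granzyme A, had a UMI in 92.1% of NK cells of library MGJ (exact 95% interval, 78.6 to 98.3) and 90.6% of library MGJ2 (87.9 to 92.8). As a guide to free RNA, Gzma was found in 0% of B cells and 0.131% of neutrophils of library MGJ. In library MGJ2 it was found in 0.597% and 0.746%, and the limit on NK genes in both classes can lower these shares. Cd3g, a T cell receptor component not used by the rule, was found in 0 of 38 NK cells of library MGJ. The exact 95% interval allows a share of up to 9.25% there. In library MGJ2 Cd3g was found in 2.36% of NK cells, and the shares of T cells were 84.9% and 73.5%. The limit on Cd3d and Cd3e in the rule bears on Cd3g as well. On these genes the label natural killer cells was kept.

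**Figure D1:**
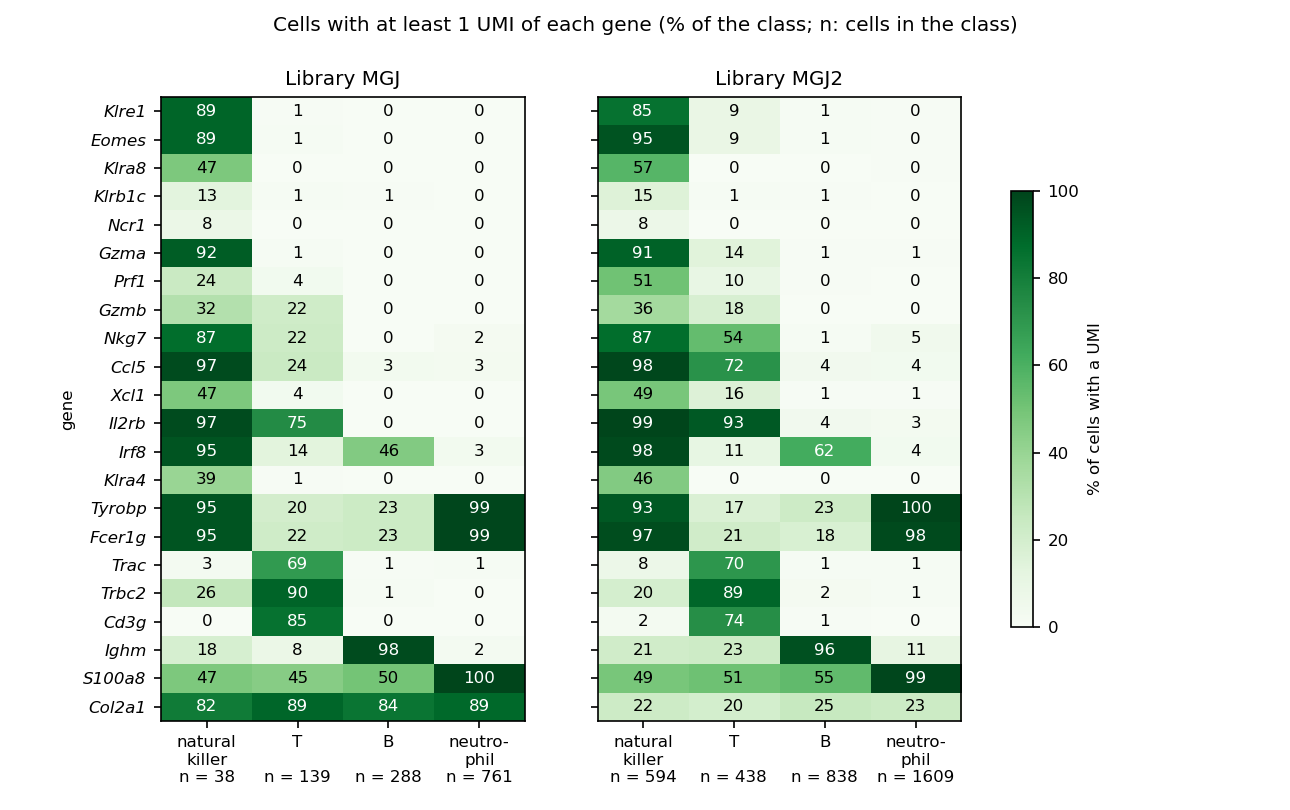
Share of cells with at least 1 UMI of each gene (rows, %) in NK cells, T cells, B cells and neutrophils (columns, with the number of cells), for library MGJ (left) and library MGJ2 (right). The first 5 rows are rule genes. Gzma was found in 92.1% and 90.6% of NK cells, whereas Ncr1 stayed at 7.89% and 7.74%, and S100a8 was seen at a like share in NK, T and B cells.

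Cells just inside and just outside the limit of the rule are described by Gzma. The 9 NK cells of library MGJ and the 38 of library MGJ2 with exactly 3 rule UMIs held Gzma at 2130.2 and 1499 CPM and had Gzma UMIs in 8 and 32 cells. Just outside, 8 and 24 cells with 2 rule UMIs from 2 genes held Gzma at 1708 and 567 CPM, with UMIs in 7 and 12 cells. Another 4 and 58 cells failed only because their rule UMIs, at least 3, came from 1 gene. They held Gzma at 4296 and 1307 CPM, with UMIs in 3 and 42 cells, so the rule left out cells with Gzma levels like those of NK cells. A further 60 cells of library MGJ2 met the NK genes but exceeded the Cd3 limit. Those cells held Gzma at 279 CPM and Trbc2, a T cell receptor constant chain, at 746 CPM.

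Most myeloid UMIs of the class came from a few NK cells, and low counts were found in many others. S100a8, a neutrophil gene, reached 5012 CPM in NK cells of library MGJ and 3670.4 CPM in library MGJ2, and it had a UMI in 47.4% and 48.7% of NK cells, close to the 49.7% and 54.5% of B cells. Cells with more than 100 UMIs of 24 neutrophil and macrophage genes per 10000, or with more than 15000 UMIs in all, numbered 3 of the 38 NK cells of library MGJ and 38 of the 594 of library MGJ2. They held 93.0% and 94.9% of the myeloid UMIs of the class, which follows in part from choosing them by these genes. The median NK cell held 8.59 and 5.85 such UMIs per 10000. Among T cells, 17 of 139 and 31 of 438 passed the same limits. These limits were chosen after seeing the data, and values without these cells are given beside several results that they change. In library MGJ, haemoglobin transcripts were concentrated in the same way, with Hbb-bs at 2987 CPM from 3 NK cells.

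Between NK and T cells, a gene was tested when it had at least 30 UMIs in both classes together and was called when the ratio of CPM was at least 2-fold in either direction. This is a fixed rule of size and not a test of significance. The T class was held to at most 1 UMI of the 5 NK genes. Ratios of genes expressed along with these can therefore follow in part from the rule. In library MGJ, 210 of 3524 genes (5.96%) were higher in NK cells and 719 (20.4%) were lower. With both classes scaled by the median ratio over genes, the split was 325 higher and 592 lower. In library MGJ2, 682 of 8964 genes (7.61%) were higher and 439 (4.9%) were lower. Over all genes tested, library MGJ had a median log2 ratio of -0.21 and library MGJ2 one of 0.07, and the medians of gene lists below stand against these. Of 3473 genes tested in both libraries, 73 were higher in NK cells in both and 131 lower in both. Another 22 were lower in library MGJ and higher in library MGJ2, and 0 were called the other way round.

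**Figure D2:**
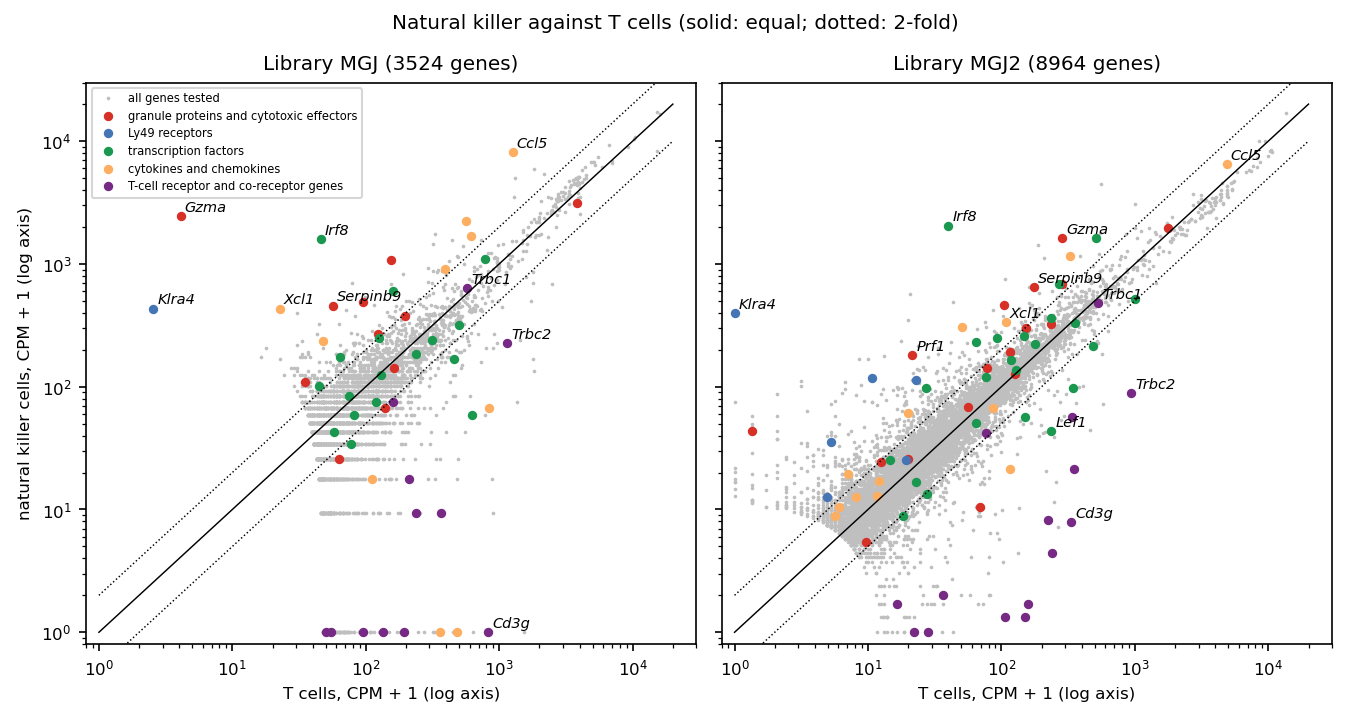
Level of each tested gene in NK cells against its level in T cells, in CPM + 1 on log axes, for library MGJ (3524 genes, left) and library MGJ2 (8964 genes, right). Coloured points are members of 5 gene lists and grey points are all genes tested, with dotted lines at 2-fold. Gzma, Klra4 and Irf8 lie far above the diagonal in both libraries, and most T cell receptor genes lie below the 2-fold line, whereas Trbc1 lies close to the diagonal.

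The leading granule gene of the NK cells was Gzma. It was at 2456 CPM (95% interval, 2184 to 2753) in NK cells of library MGJ and 1622 CPM (1577 to 1669) in library MGJ2. T cells held 3.10 and 285 CPM, so the NK level was 794 times (218 to 6583, from 2 T cell UMIs) and 5.69 times (5.28 to 6.15) the T cell level. Perforin (Prf1), which opens pores in the target membrane, was at 82.98 CPM (39.8 to 153) and 181 CPM (165 to 197), with UMIs in 23.7% and 50.8% of NK cells. The ratio of Prf1 to T cells was 8.82 (6.70 to 11.8) in library MGJ2, and in library MGJ it was 7.66 from only 17 UMIs in both classes, below the minimum for a call.

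Granzyme B, the protease linked to rapid target cell death, separated the cells less. Gzmb was at 141 CPM in NK cells of library MGJ and 141 CPM in library MGJ2, and it was at 162 and 76.5 CPM in T cells. The ratio was 0.868 (0.487 to 1.46) and 1.84 (1.56 to 2.18), short of the 2-fold limit in both, but 2.21 (1.84 to 2.67), past that limit, in library MGJ2 without the myeloid-rich and very deep cells. Both Gzma and Prf1 were detected in 23.7% and 48.3% of NK cells. Only 7.89% and 5.72% had no UMI of Gzma, Gzmb or Prf1.

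Genes that protect the killer cell or equip its granules were also higher in NK cells. Serpinb9, an inhibitor of granzyme B, was at 456 and 647 CPM, 8.19 times (5.29 to 12.8) and 3.71 times (3.36 to 4.11) the T cell level. Serpinb6b, of the same family of protease inhibitors, was at 5.19 and 4.50 times, and Nkg7, a granule membrane protein, was at 6.99 and 2.44 times. Fasl, a death ligand, was at 3.17 times (1.47 to 6.57) the T cell level in library MGJ and 1.68 times in library MGJ2, where it was not called. Gzmk was at 8.30 and 9.57 CPM, and in library MGJ2 it was at 0.141 of the T cell level. Of the granule and effector genes, 6 of 11 tested were higher and 2 lower in library MGJ (median log2 ratio, 1.12), and 7 of 17 were higher and 1 lower in library MGJ2 (0.88). Without the myeloid-rich and very deep cells, 5 of 10 were higher and 0 lower in library MGJ, and 8 of 16 were higher and 1 lower in library MGJ2.

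**Figure D3:**
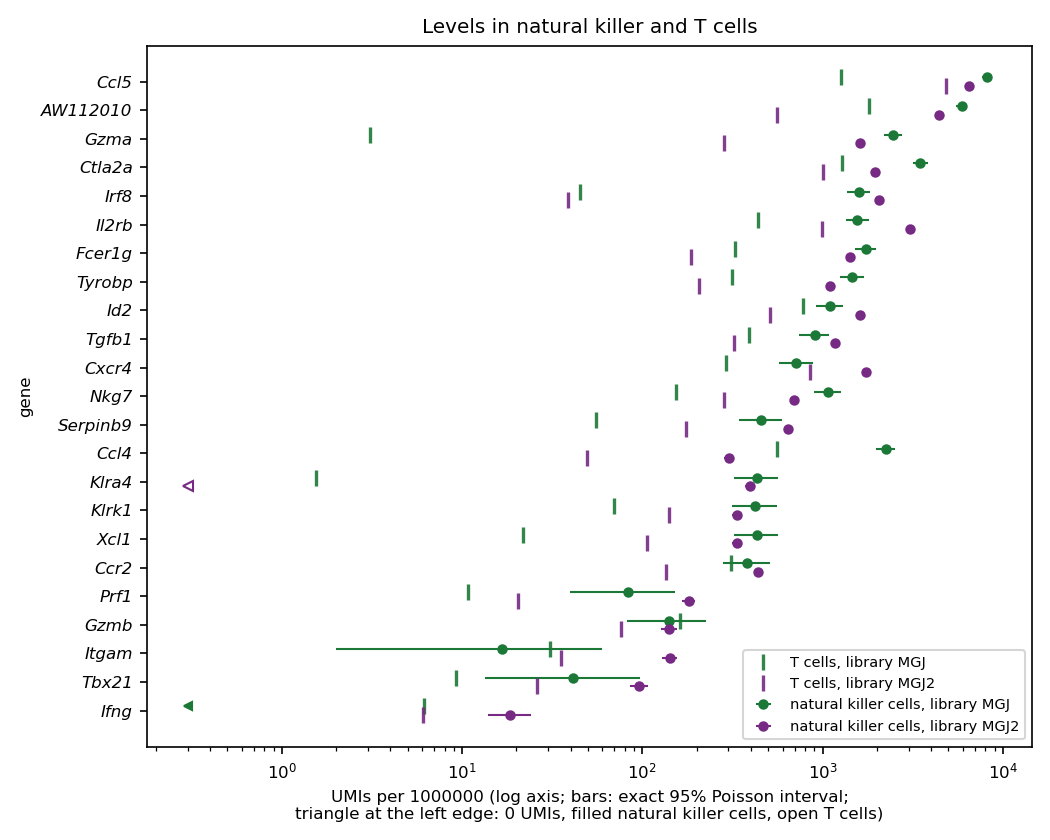
Level of 23 genes in NK cells (points, with exact 95% Poisson intervals) and T cells (vertical ticks), in UMIs per 1000000 on a log axis, for library MGJ (green) and library MGJ2 (purple). Triangles at the left edge mark 0 UMIs. Irf8 and Gzma stand well apart between the classes, Gzmb overlaps with T cells in library MGJ, and Ifng had 0 UMIs in NK cells of library MGJ and 18.5 CPM in library MGJ2.

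Signalling adaptors of the myeloid and NK type distinguished NK cells from T cells. Tyrobp (DAP12) and Fcer1g, which carry the activation motifs used by several NK receptors, were found in 94.7% and 94.7% of NK cells of library MGJ and in 93.4% and 97.1% of library MGJ2. In library MGJ, Tyrobp stood at 1460.5 CPM and Fcer1g at 1734 CPM, and in library MGJ2 they stood at 1105 CPM and 1418 CPM. Neutrophils also express both genes, and 22.9% and 22.6% of B cells held a Tyrobp UMI. The NK to T ratio of Tyrobp was 4.63 (3.76 to 5.69) and 5.36 (4.90 to 5.87), and it was 7.26 and 13.0 without the myeloid-rich and very deep cells. The ratio of Fcer1g was 5.29 and 7.62, and 10.2 and 18.1 without those cells. Hcst (DAP10), the adaptor of NKG2D that T cells use as well, was at 0.994 and 0.712 times the T cell level.

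Among activating receptors, Klrk1 (NKG2D), which binds stress-induced ligands, was at 423 CPM in NK cells of library MGJ and 334 CPM in library MGJ2, 6.08 times (3.99 to 9.28) and 2.38 times (2.12 to 2.69) the T cell level. Fcgr3 (CD16), the receptor for antibody-coated targets, was at 183 and 96.1 CPM. Its ratio was 5.13 and 6.08, and 6.75 and 20.0 without the myeloid-rich and very deep cells. Sh2d1b1 (EAT-2), an adaptor of SLAM receptors, was at 48.6 CPM in library MGJ2 and had 1 UMI in T cells, a ratio of 135 (23.9 to 5375). Zap70, the kinase downstream of the T cell receptor, was at 0.412 and 0.408 of the T cell level, whereas its relative Syk was at 2.18 times in library MGJ2. In this list 4 of 13 genes tested were higher and 5 lower in library MGJ (median log2 ratio, -0.01), and 10 of 20 were higher and 3 lower in library MGJ2 (0.91).

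The Ly49 receptors, encoded by the Klra genes, recognize MHC class I molecules and are switched on in a varied, cell-by-cell manner in NK cells. The genes lie in one cluster on mouse chromosome 6. The members are near-identical copies in part, so reads may have been split between them or dropped, and counts of single members are uncertain. The region just before the start of the gene is printed for the 3 Ly49 genes with the most NK cell UMIs over both libraries, because these genes carry the receptor pattern described next. Each line holds 250 bases before the annotated start on the minus strand (RefSeq, GRCm38.p6), at chr6:130129899-130130148 for Klra8, chr6:130067272-130067521 for Klra4 and chr6:130193113-130193362 for Klra9. Capitals mark the longest run of bases that the 3 windows share.
Klra8: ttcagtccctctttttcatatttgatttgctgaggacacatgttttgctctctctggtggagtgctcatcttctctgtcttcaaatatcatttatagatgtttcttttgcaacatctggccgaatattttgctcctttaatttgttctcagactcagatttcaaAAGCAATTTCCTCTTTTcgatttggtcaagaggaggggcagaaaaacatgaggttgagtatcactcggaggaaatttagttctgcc
Klra4: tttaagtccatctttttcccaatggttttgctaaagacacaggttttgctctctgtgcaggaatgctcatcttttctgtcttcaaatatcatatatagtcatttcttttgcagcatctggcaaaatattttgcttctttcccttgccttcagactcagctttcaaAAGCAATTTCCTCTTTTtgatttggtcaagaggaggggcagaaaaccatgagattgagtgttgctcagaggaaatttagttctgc
Klra9: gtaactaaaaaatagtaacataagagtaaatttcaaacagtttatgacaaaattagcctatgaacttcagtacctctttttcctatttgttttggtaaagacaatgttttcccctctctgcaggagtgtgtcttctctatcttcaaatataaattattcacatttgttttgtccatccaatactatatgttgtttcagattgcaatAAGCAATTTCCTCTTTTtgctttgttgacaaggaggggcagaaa
The shared run, AAGCAATTTCCTCTTTT, is 17 bases long. On the printed strand it was found before 6 of the 11 Ly49 genes with a window (Klra3, Klra4, Klra6, Klra8, Klra9 and Klra17). Klra8, Klra4 and Klra9 hold it by the way the run was chosen. Searched on both strands, the run was found in 8 of 32851 windows of the same length genome-wide (0.0244%). The Klra8 and Klra4 windows were 85.1% identical over 249 bases without gaps. They matched the Klra9 window at 40.3% over 186 bases and 40.6% over 187 bases, also without gaps. A comparison without gaps misses matches displaced by inserted or lost bases, so the lower values do not measure how alike the windows are. Of the genes with the run, Klra6 and Klra17 were hardly detected, at 8 and 2 UMIs in NK cells of library MGJ2, and Klra7, which lacks the run, had 329 UMIs.

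Klra4, the activating receptor Ly49D, ranked first among all genes by its ratio to T cells, taking for each gene the less extreme of both libraries. It was at 432 CPM (322 to 566) in NK cells of library MGJ and 396 CPM (374 to 419.8) in library MGJ2, with UMIs in 39.5% and 45.8% of the cells. T cells had 1 UMI in library MGJ, a ratio of 279 (47.9 to 11222), and 0 UMIs in library MGJ2, where NK cells were at least 368-fold higher. Klra8 is a rule gene, so its level is not a result. Klra4 was not used to choose the cells, but the rule favoured Klra8 in NK cells and limited it in T cells. Reads may be split between these close copies, so the ratios of Klra4 and other Ly49 genes can follow in part from the rule. Inhibitory members were also present. Klra3 (Ly49C) was found in 21.1% and 11.95% of NK cells, Klra7 (Ly49G) in 21.1% and 30.5%, and Klra9 (Ly49I) in 23.7% and 27.1%. In library MGJ2, Klra9 was at 11.9 times (8.07 to 18.4), Klra3 at 7.93 times and Klra7 at 5.13 times the T cell level. Of Ly49 genes outside the rule, 1 of 1 tested was higher in library MGJ, and in library MGJ2 5 of 6 were (median log2 ratio, 2.67).

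Single NK cells differed in which Ly49 genes were counted. The median cell held UMIs of 2 Ly49 genes in both libraries, with the rule gene Klra8 counted. In library MGJ, 13.2% of the cells held none and the highest number was 4, and in library MGJ2 10.9% held none and the highest was 5. A Ly49 UMI other than Klra8 was found in 78.9% and 79.3% of NK cells. In library MGJ2, Klra4 and Klra8 were found together in 196 cells, where the product of their shares gives 156, and in library MGJ in 8 cells, where it gives 7.11. Klra7 and Klra9 were found together in 32 cells of library MGJ2, where the product gives 49.1. Klra4 and Klra7 (86 cells, product 82.9) and Klra4 and Klra9 (72 cells, product 73.7) stayed near the product. These are descriptions, since Klra8 chose the cells and a gene with few UMIs is missed in many cells that express it.

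**Figure D4:**
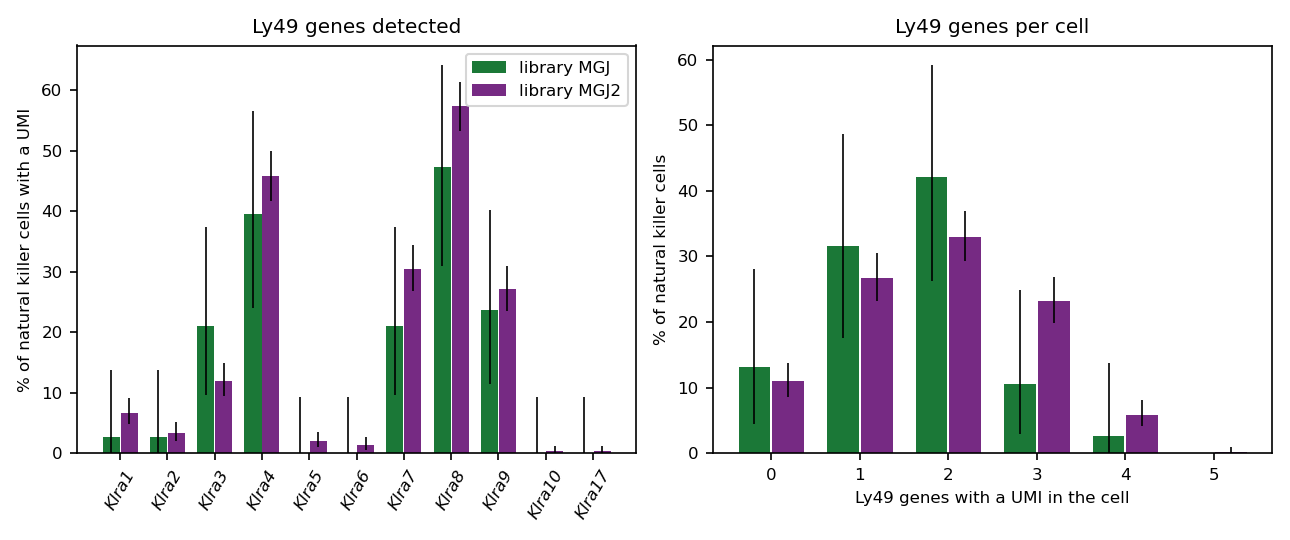
Left, share of NK cells with a UMI of each Ly49 gene (%), and right, share of NK cells by the number of Ly49 genes with a UMI (%), for library MGJ (green, 38 cells) and library MGJ2 (purple, 594 cells). Bars carry exact 95% binomial intervals. Klra8, a rule gene counted in both panels, and Klra4 lead in both libraries. Klra5, Klra6, Klra10 and Klra17 are at or near 0, and cells with 2 Ly49 genes are the most frequent.

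Among other lectin-like receptors of the same gene complex, some were far higher in NK than in T cells. Klri2, a partner of Klre1, was at 141 and 168 CPM in NK cells, 18.7 times (12.5 to 29.1) the T cell level in library MGJ2. Klre1 is a rule gene limited in T cells, so this ratio can follow in part from the rule. Klrb1b, an inhibitory receptor of the NKR-P1 family, was at 99.8 CPM in library MGJ2, 46.3 times (21.0 to 127). Klrd1 (CD94) and Klrc1 (NKG2A), which form an inhibitory pair, separated NK from T cells less. Klrd1 was at 2.47 times (1.33 to 4.43) and 1.18 times (1.02 to 1.36), and without the myeloid-rich and very deep cells it was at 1.95 times (1.01 to 3.59) in library MGJ and no longer called. Klrc1 was at 1.09 and 0.832 times. Pdcd1 (PD-1), an inhibitory receptor of activated T cells, was at 24.9 and 3.42 CPM, 0.132 (0.0268 to 0.395) and 0.0259 of the T cell level. In the list of inhibitory and other lectin-like receptors, 1 of 4 tested was higher and 1 lower in library MGJ (median log2 ratio, -0.14), and 3 of 12 were higher and 2 lower in library MGJ2 (0.17). Without those cells, 0 of 4 were higher and 2 lower in library MGJ (-1.54). Over the span of 28 annotated Klr genes (GRCm38, chr6:128609227-131247362), 3 of 9 genes tested were higher and 3 lower in library MGJ, and 10 of 20 were higher and 1 lower in library MGJ2.

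Receptors for growth and activating cytokines were led by the shared interleukin 2 and interleukin 15 receptor chain. Il2rb was at 1560.0 CPM (1345 to 1799.7) in NK cells of library MGJ and 3065 CPM (3002 to 3129) in library MGJ2, with UMIs in 97.4% and 99.5% of the cells. It was at 3.56 times (2.95 to 4.30) and 3.07 times (2.94 to 3.20) the T cell level. Il7r, the interleukin 7 receptor, had 0 UMIs in NK cells of library MGJ, so its level was at least 18.0-fold lower than in T cells, and in library MGJ2 it was 11.1-fold lower. Il2ra, the high-affinity interleukin 2 receptor chain, was at 0.0333 (0.000838 to 0.188, from 1 NK cell UMI) and 0.230 of the T cell level. Il12rb2 (interleukin 12 receptor) was at 99.6 and 66.0 CPM and Il18r1 (interleukin 18 receptor) at 124 and 144 CPM. Neither was called in library MGJ2, at 1.65 and 1.08 times the T cell level. Of cytokine receptor genes, 2 of 11 tested were higher and 4 lower in library MGJ (median log2 ratio, -0.60), and 2 of 14 were higher and 4 lower in library MGJ2 (0.15).

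Among secreted factors, Ccl5 was counted in most NK cells and Ifng, which encodes interferon gamma, in few. Ccl5, which attracts T cells and monocytes, was at 8165 CPM (7663 to 8692) and 6524 CPM (6432 to 6617), with UMIs in 97.4% and 98.5% of NK cells. Its ratio to T cells was 6.48 in library MGJ, but 1.34 in library MGJ2, where the T cells themselves held 4872 CPM. Xcl1, which attracts cross-presenting dendritic cells, was at 432 and 335 CPM and found in 47.4% and 48.7% of NK cells. It was at 19.9 times (10.9 to 38.9) and 3.15 times (2.77 to 3.604) the T cell level. Ifng had 0 UMIs in the 38 NK cells of library MGJ, which allows up to 7.89% of cells with a UMI. In library MGJ2 Ifng was at 18.5 CPM in 6.397% of the cells, 3.02 times (1.73 to 5.56) the T cell level.

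The levels of Ccl3 and Ccl4, which attract macrophages, depended on the myeloid-rich and very deep cells. Ccl4 was at 2249 CPM in NK cells of library MGJ and 303 CPM in library MGJ2, and 721 and 327 CPM without the myeloid-rich and very deep cells. The ratio of Ccl4 to T cells was 4.01 and 6.15, and 13.7 and 7.36 without those cells. Ccl3 was at 1693 and 66.3 CPM, and 370.0 and 43.9 CPM without them, and its ratio in library MGJ2 went from 0.776 to 2.46. Tnf, called in library MGJ at 5.00 times the T cell level, was at 1.25 times without them. Tgfb1, a regulator of matrix formation, was at 904 and 1168 CPM, 2.32 times (1.84 to 2.91) and 3.603 times (3.35 to 3.88) the T cell level. Tnfsf11 (RANKL), the osteoclast differentiation factor, was at 16.6 and 1.37 CPM, 0.151 (0.0179 to 0.566) of the T cell level in library MGJ. Of cytokine and chemokine genes, 6 of 10 tested were higher and 4 lower in library MGJ (median log2 ratio, 1.34), and 5 of 13 were higher and 1 lower in library MGJ2 (0.75).

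Receptors for tissue entry differed from those of T cells. Cxcr4, the receptor for the marrow chemokine CXCL12, was at 714 and 1750.4 CPM, 2.45 times (1.88 to 3.18) and 2.05 times (1.96 to 2.16) the T cell level. Ccr2, a receptor for monocyte-attracting chemokines, was called in library MGJ2 alone, at 3.27 times, against 1.23 times (0.871 to 1.70) in library MGJ. Itga2 (CD49b), an integrin used as a marker of mouse NK cells, had 7 UMIs in NK cells and 0 in T cells of library MGJ, and it was 51.1 times (23.2 to 140.2) the T cell level in library MGJ2. The tissue-residency receptor Cxcr6 had 0 UMIs in NK cells of library MGJ against 833 CPM in T cells, at least 33.4-fold lower, and was 42.7-fold lower in library MGJ2. S1pr5, an egress receptor of mature NK cells, had 0 and 21 UMIs. Of homing and adhesion genes, 6 of 17 tested were higher and 5 lower in library MGJ (median log2 ratio, 0.30), and 7 of 21 were higher and 7 lower in library MGJ2 (0.56).

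Among transcription factors outside the rule, the highest ratio belonged to Irf8, which is known for its role in myeloid cells and in NK cell responses. Irf8 was at 1585 CPM (1368 to 1826) in NK cells of library MGJ and 2052 CPM (2000.05 to 2104) in library MGJ2, with UMIs in 94.7% and 97.8% of the cells. B cells, which also use this factor, held an Irf8 UMI in 45.8% and 61.8%. The NK level was at 35.3 times (23.8 to 54.2) and 52.9 times (43.7 to 64.6) the T cell level, and at 37.7 and 66.5 times without the myeloid-rich and very deep cells. Runx3, which drives cytotoxic genes, was at 3.79 and 2.56 times. Nfil3, needed for NK cell development, was at 2.30 times (1.06 to 4.67) and 3.61 times (3.05 to 4.28), and its call in library MGJ ended without those cells, at 1.88 times (0.801 to 4.07). Tbx21 (T-bet) was found in 13.2% and 34.5% of NK cells and was at 3.66 times the T cell level in library MGJ2. A Tbx21 UMI without an Eomes UMI was seen in 0 and 10 cells, although Eomes is a rule gene. Lef1 and Tcf7, factors of naive and early lymphocytes, were at 0.180 and 0.373 of the T cell level in library MGJ2, and Rora at 0.0934 and 0.285. In this list 5 of 17 genes tested were higher and 3 lower in library MGJ (median log2 ratio, -0.38; without those cells 3 higher and 3 lower), and 6 of 23 were higher and 6 lower in library MGJ2 (0.32).

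Most T cell receptor genes were lower in NK cells. Trac, the constant gene of the alpha chain, was at 8.30 and 20.2 CPM in NK cells against 364 and 346 CPM in T cells. Trbc2 was at 0.196 and 0.0930 of the T cell level. Trbc1, the other constant gene of the beta chain, was at 631 CPM (497 to 789) and 476 CPM (451 to 501) in NK cells. Its ratio was 1.10 (0.849 to 1.41) and 0.895 (0.831 to 0.964), and it had a UMI in 65.8% and 75.8% of NK cells against 0% and 1.79% of B cells. Thinned to 1000 UMIs per cell, Trbc1 was found in 44.7% and 36.8% of NK cells and 35.97% and 32.9% of T cells. The Trbc genes resemble each other closely, so their separate counts are uncertain. In the T cell receptor and co-receptor list, 11 of 12 genes tested were lower in library MGJ, and in library MGJ2 13 of 15 were. In neither library was a member higher. Besides Trbc1, the member not called in library MGJ2 was Trdc, the constant gene of the delta chain, at 0.541 of the T cell level (0.429 to 0.680), and 0.478 without the myeloid-rich and very deep cells. The rule limited Cd3d and Cd3e in NK cells and required them in T cells, so these counts follow in part from it.

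Genes of group 1 innate lymphoid cells (ILC1), tissue-resident relatives of NK cells, were mostly lower in NK than in T cells. Cells with at least 2 UMIs from at least 2 ILC1 genes made up 18.4% and 15.7% of NK cells and 78.4% and 47.3% of T cells, and several of these genes are also T cell genes. The rule used Eomes, the factor of conventional NK cells, so low levels of ILC1 genes can follow in part from it. These values therefore do not show how many ILC1 the callus held. Itga1 (CD49a) was found in 2.63% and 5.22% of NK cells. Of the ILC1 list, 1 of 6 genes tested was higher and 5 lower in library MGJ (median log2 ratio, -4.30), and 1 of 9 was higher and 5 lower in library MGJ2 (-1.18). The higher gene was Kit, the stem cell factor receptor, in both. Of genes of group 2 and group 3 innate lymphoid cells, 2 of 2 tested were lower in library MGJ, and in library MGJ2 1 of 2 was.

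Beyond the lists, genes with the highest and lowest ratios were taken by rank. Car2, a carbonic anhydrase, was at 398 and 568 CPM in NK cells, 13.5 times (7.82 to 24.4) and 28.8 times (21.99 to 38.3) the T cell level. Vegfa, the vascular growth factor that acts in callus vascularization, was at 324 and 491 CPM with UMIs in 65.8% and 75.6% of NK cells. Its ratio to T cells was 7.47 (4.48 to 12.6) and 11.7 (9.68 to 14.2), whereas all other kept cells together held 244 and 235 CPM. A Vegfa UMI was found in 11.8% and 12.9% of B cells. Nudt4, Cstdc4, Cemip2, Rhoq, Sft2d2 and Ptpn7 completed this group with ratios between 4.47 and 12.2. The Cstdc4 UMIs came from 6 NK cells in either library.

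The long noncoding RNA AW112010 was at 5908 and 4440.4 CPM and found in 100% and 98.1% of NK cells, 3.25 and 7.96 times the T cell level. Txk, a Tec-family kinase, was at 9.01 and 3.02 times. Among the genes with the lowest ratios, Ly6a (Sca-1) was at 1 and 2 UMIs in NK cells, with a ratio to T cells of 0.00929 (0.000235 to 0.0520) and 0.0105 (0.00126 to 0.0383). Ctla4, an inhibitory receptor of T cells, had 0 CPM in NK cells of library MGJ, at least 13.0-fold lower, and 2 UMIs in library MGJ2, a ratio of 0.00947 (0.00114 to 0.0347). Ramp3, Tnfrsf4 and Klk8 were the remaining ones outside the gene lists, with Ramp3 23.4-fold, Tnfrsf4 18.9-fold and Klk8 19.7-fold lower in library MGJ2.

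NK cells of library MGJ2 were also described by maturation. Of 594 cells, 203 held a Cd27 UMI and no Itgam UMI (34.2%), 132 held Itgam only (22.2%), 73 held both and 186 held neither. In library MGJ, 13 of 38 cells held Cd27 only, 1 held Itgam only, 1 held both and 23 held neither, too few for a further description. Itgam is also a neutrophil gene, and 18 of the 132 Itgam-only cells passed the myeloid or depth limit against 5 of the 203 Cd27-only cells. S100a8 stood at 12497 CPM in all Itgam-only cells and 423 CPM in all Cd27-only cells, and at 175 and 132 CPM once cells over a limit were left out. Of monocyte and macrophage genes, 3 of 3 tested stayed higher in the remaining Itgam-only cells (median log2 ratio, 1.89), with Lyz2, a lysozyme of macrophages and neutrophils, at 108 and 28.9 CPM, 3.75 times (2.29 to 6.21), and Cd14 and Apoe at 3.70 and 3.61 times. Of neutrophil genes, 0 of 4 were called. The part of this remaining myeloid RNA in the differences below was not tested. The comparison was made on the 114 Itgam-only and 198 Cd27-only cells that remained, with median depths of 3323.5 and 4613.5 UMIs.

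Among 5528 genes with at least 30 UMIs, 193 (3.49%) were at least 2-fold higher in the Itgam-only cells and 168 (3.04%) were lower, with a median log2 ratio of 0.09. Most genes that mark mature NK cells were higher in Itgam-only cells. Cma1, a mast cell type chymase also made by NK cells, was at 158 CPM in Itgam-only and 11.97 CPM in Cd27-only cells, a ratio of 13.2 (7.04 to 26.8). Zeb2, a factor of terminal maturation, was at 3.88 times (2.60 to 5.85), Gzmb at 3.67 times (2.75 to 4.92) and Prf1 at 3.11 times (2.43 to 3.98). Spn and Ly6c2 were higher as well, at 2.38 and 3.55 times. In all, 6 of 7 mature-cell genes tested were higher (median log2 ratio, 1.83), Irf8 being the member that was not called, at 1.44 times.

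Genes of early NK cells went the other way. Kit was at 19.7 CPM in Itgam-only and 123 CPM in Cd27-only cells, 6.23-fold (3.06 to 14.8) higher in the latter. Emb, a cell adhesion partner, was 4.67-fold (3.85 to 5.71) higher and Thy1 3.24-fold higher in Cd27-only cells. Xcl1 was at 212 and 469 CPM, 2.21-fold higher in Cd27-only cells, whereas Ccl4 was 4.99-fold and Ccl5 2.17-fold higher in Itgam-only cells. Of the early NK list, 5 of 9 genes tested were lower in Itgam-only cells and 0 were higher (median log2 ratio, -1.15). Among homing receptors, Ccr2, Ccr7 and S1pr1 were lower in Itgam-only cells, with Ccr7 7.29-fold (3.603 to 17.2) higher in Cd27-only cells.

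Il2rb and Klra4 differed little between the stages. Il2rb was at 3812 and 3342 CPM in Itgam-only and Cd27-only cells, and Klra4 at 468 and 525 CPM, a ratio of 0.892 (0.751 to 1.05). Klra9 was 2.75-fold (2.04 to 3.70) higher in Itgam-only cells. The proliferation genes Mki67 and Top2a had 1 and 3 UMIs in Itgam-only cells and 30 and 57 UMIs in Cd27-only cells. These counts are not scaled, and the Itgam-only cells were fewer and less deep. Of cell cycle genes, 3 of 7 tested were lower in Itgam-only cells and 0 were higher (median log2 ratio, -0.46). A cell counts for Cd27 or Itgam only when a UMI is drawn, so cells without a UMI of either gene cannot be placed.

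**Figure D5:**
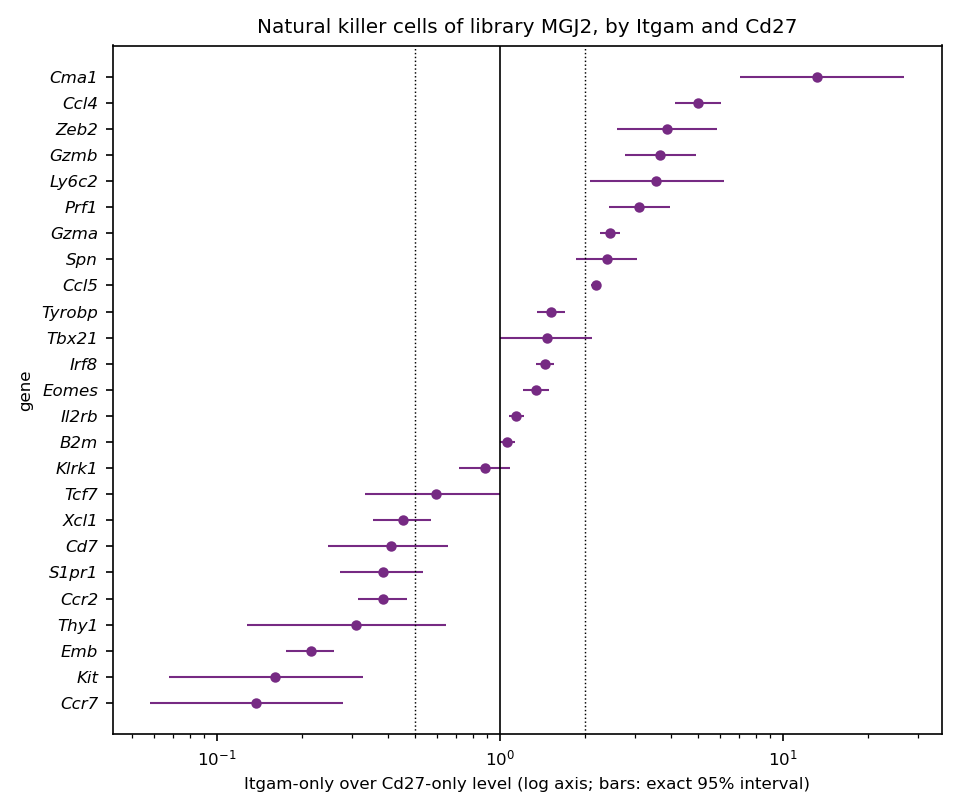
Ratio of the level in 114 Itgam-only to that in 198 Cd27-only NK cells of library MGJ2, without myeloid-rich and very deep cells, on a log axis with exact 95% intervals and dotted lines at 2-fold. Cma1, at 13.2, and Ccl4, at 4.99, lead towards Itgam-only cells, Kit and Ccr7 stand at the opposite end, and Il2rb and B2m lie near 1.

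Proliferation genes were counted in few NK cells. At least 2 UMIs of Mki67 and Top2a together were found in 5.26% of NK cells of library MGJ (2 cells) and 3.37% of library MGJ2 (20 cells), against 5.04% and 5.71% of T cells. Genes of MHC class I, the ligands of Ly49 receptors, differed from the T cell level by less than the 2-fold limit. B2m was at 0.975 and 1.08 times, H2-K1 at 1.15 and 1.08 times and H2-D1 at 1.11 and 1.25 times, and 0 of 10 genes were called in either library. Without the myeloid-rich and very deep cells, Tap1, a peptide transporter, was called lower in library MGJ, at 0.482 times, with an interval that included equal levels (0.170 to 1.12).

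Among activation genes, the orphan nuclear receptors Nr4a2 and Nr4a3 were called higher in both libraries, and Nr4a1 in library MGJ2, at 2.14 times against 1.59 times in library MGJ. Nr4a2 was at 4.798 times (2.34 to 9.75) and 2.44 times (2.20 to 2.72) the T cell level and Nr4a3 at 2.07 and 2.10 times. Without the myeloid-rich and very deep cells, Nr4a2 was at 7.21 times (3.07 to 17.8) in library MGJ, from fewer UMIs than the minimum for a call. Cd69, an early activation marker that also retains cells in tissue, was at 0.240 and 0.499 of the T cell level, the latter at 0.501 and not called without those cells. In this list of 22 genes, 5 were higher and 5 lower in library MGJ (median log2 ratio, -0.04), and 4 were higher and 1 lower in library MGJ2 (0.27). Without those cells, 3 of 17 were higher and 1 lower in library MGJ, and 6 of 21 were higher and 0 lower in library MGJ2. Digestion of the tissue can itself induce such genes, and its part in the levels was not tested.

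Of interferon-stimulated genes, 0 of 10 tested were higher and 3 lower in library MGJ, and 1 of 14 was higher and 3 lower in library MGJ2. The median log2 ratio was -0.47 and -0.04, against -0.21 and 0.07 over all genes tested. Of all genes tested, 20.4% were lower in library MGJ and 4.9% in library MGJ2, so a few lower genes in library MGJ say little about a list. Bst2 and Ifi27l2a were among the lower genes in both, with Ifi27l2a at 0.0745 and 0.202 of the T cell level. Bcl2, a survival factor, was at 7.66 times (3.68 to 16.4) in library MGJ and 1.89 times in library MGJ2, and of survival genes 2 of 9 were higher and 4 lower, and 0 of 10 were higher and 3 lower. Neutrophil genes were called higher in NK cells at 3 of 3 tested in library MGJ. In library MGJ2, 3 of 11 were higher. Without the myeloid-rich and very deep cells, 0 of 2 and 0 of 8 were called. Their summed level was 11526 CPM in NK and 3847 CPM in T cells of library MGJ, and in library MGJ2 it was 10201 and 8131 CPM. Fibroblast and bone genes were lower at 9 of 10 tested in library MGJ. In library MGJ2, 5 of 8 were lower. Without the myeloid-rich and very deep cells, 0 of 6 were called in library MGJ and 4 of 6 were higher in library MGJ2, so that direction turned. Cartilage genes were lower at 2 of 9 tested in library MGJ, near the share over all genes, and at 6 of 8 in library MGJ2. Without those cells, they were lower at 1 of 8 and 0 of 4. Monocyte and macrophage genes were lower at 3 of 5 tested in library MGJ and higher at 1 of 7 in library MGJ2 (Apoe). Without those cells, Lyz2 was the 1 higher gene of 4 in library MGJ2, and Apoe was not called, at 41.8 CPM in NK cells and 26.1 CPM in T cells. The part of free RNA and of other cells in these counts was not tested.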

How the data were processed

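Droplet single-cell RNA sequencing of digested mouse callus (10x Chromium 3' chemistry, version 3) gave 2 libraries. The values used were raw UMI counts for 32285 genes, which the authors deposited as filtered matrices without normalization. Per the file headers Cell Ranger 4.0.0 wrote them, and per the submitters' processing notes the build was GRCm38. Seurat is also named in those notes, and its output was not used here.

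Kept cells had at least 200 genes and at most 20% of UMIs from mitochondrial genes. NK, T and B cells and neutrophils were defined by UMI limits on marker genes in each library separately. Neutrophils needed at least 3 UMIs from at least 2 of Csf3r, Cxcr2 and Mmp9, and B cells at least 3 UMIs of Cd79a and Ms4a1. The members and the 28 gene lists (373 of 376 genes measured) were chosen with earlier results of these data known. UMIs were summed per class and library, divided by the class total and multiplied by 1000000 (CPM). Levels carry exact Poisson intervals, shares exact Clopper-Pearson intervals and ratios exact conditional binomial intervals, all at 95% and for counting error only. With 0 UMIs in a class, ranks and list medians over the full classes used 3 UMIs instead. The limits given for such genes are those of the 95% interval. Rule genes were left out of calls. Shares were also computed after thinning each cell to 1000 UMIs. List members could be named, and beyond them the 15 highest and 10 lowest ratios to T cells and the 15 highest ratios to all other kept cells, ranked by the less extreme library. No test between libraries or conditions was made, since neither library had a group and each was 1 sample. The calculation of ratios was tested on simulated data.

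Doublets were not removed beyond the limits on Cd3, B cell and Col2a1 UMIs. Scrublet (scanpy 1.11.5) called 0 of 13460 cells in library MGJ, so it was not usable there, and it called 223 of 7806 cells in library MGJ2 (2.86%), 29 of them NK cells. The alternatives were stricter and looser rules, other minimum UMIs, scaling by the median ratio, equal weight per cell and removal of Scrublet calls. Removal of myeloid-rich and very deep cells was added after seeing the data. Promoter windows came from RefSeq on GRCm38.p6, and gene positions from GRCm38. Sums used pandas 2.3.3 and numpy 2.4.6, intervals scipy 1.17.1, all under Python 3.11.15. A few members of the lists are counted in the list totals and not reported singly here.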

Additional observations from a re-analysis of the deposited data

How the results depend on the processing

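With at least 5 rule UMIs, the NK share was 0.156% of library MGJ (21 cells) and 6.58% of library MGJ2. With Klra8 left out of the rule, the share of library MGJ2 was 6.55%. Without a minimum above 1 UMI per gene, 1820 genes were higher and 5743 lower in library MGJ, and 2861 higher and 2438 lower in library MGJ2, since genes with few UMIs then pass the 2-fold limit. With both classes scaled by the median ratio, 325 genes were higher in library MGJ. The 1320 recomputed ratios cover the ranked genes and a chosen set, not all list members, and 0 called ones turned their direction. Outside them, Col1a2, Sparc and Alpl turned from lower to higher in library MGJ2 without the myeloid-rich and very deep cells. List counts that turned are given with the results. Of the 1320 ratios, 1240 stayed within their counting interval and 80 moved. The removal of myeloid-rich and very deep cells, added after seeing the data, moved 26 of 126. The limits of at least 500 genes and at most 10% mitochondrial UMIs kept nearly the same NK cells. All 126 ratios therefore stayed under either of these limits. Of 1254 levels, 182 moved. Values of library MGJ rest on 38 cells, where 3 UMIs are 24.9 CPM. No paired analysis was possible because each library is 1 sample without a group and no test was made.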

Other observations

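Partners of NK receptors were counted in the other kept cells of the callus. Il15, the cytokine on which NK cells depend, was at 5.26 CPM outside the NK class in library MGJ and 23.7 CPM in library MGJ2, with UMIs in 4.31% and 13.2% of those cells. Cxcl12, the ligand of Cxcr4, was at 81.0 and 50.5 CPM. Clec2d, the ligand of the inhibitory receptor Klrb1b, was at 52.8 and 159 CPM, and Pvr, the ligand of Cd226, at 37.8 and 45.6 CPM. Raet1e, a ligand of Klrk1, was at 1.73 and 0.744 CPM. Cd226 itself was at 8.30 and 8.89 CPM in NK cells. Among the 25 ligand genes, 1 of 6 tested was higher and 4 lower in NK than T cells in library MGJ, and 3 of 10 were higher and 0 lower in library MGJ2. Without the myeloid-rich and very deep cells, 1 of 4 was higher and 2 lower in library MGJ, and 1 of 8 was higher and 0 lower in library MGJ2.

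Genes called lower in NK than T cells in library MGJ and higher in library MGJ2 numbered 22 and included the matrix and stromal genes Tnc, Vcan and Fstl1, the platelet gene Pf4 and Apoe. They were named after their values were seen. Pf4 in library MGJ2 came from 2 NK cells. Without the myeloid-rich and very deep cells, Pf4 held 1 NK cell UMI in either library, below the minimum for a call, and Apoe was at 41.8 CPM in NK and 26.1 CPM in T cells of library MGJ2 (interval of the ratio, 1.15 to 2.24) and no longer called. Over 7528 genes, the NK profiles of both libraries correlated at a Spearman rho of 0.804 and a Pearson r of 0.875 on log2(CPM + 10), as a description across genes, which are not independent replicates.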
